A study of Homo sapiens with 12 samples.

Results

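Zinc finger genes were examined in the tables of genes that changed when breast cells were pushed through capillary-sized constrictions. A gene was taken as a member where its row was protein-coding and its symbol began with ZNF, ZSCAN, ZKSCAN, ZFP or ZBTB. This gave 45 rows and 43 distinct genes, of 3158 rows and 3090 distinct genes in the 3 tables. The MCF-10A table held 37 of them among 2680 rows, the MDA-MB-231 table held 7 among 381 and the LM2 table held 1 among 97. ZNF460 and ZNF154 stood in both the MCF-10A and the MDA-MB-231 tables, and no zinc finger gene stood in all 3.

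The libraries came from 3 cell lines: MCF-10A, a non-malignant breast epithelial line, MDA-MB-231, a triple negative breast cancer line, and LM2, a lung-metastatic derivative of MDA-MB-231. For each line, RNA from cells collected after transit through channels 5 µm wide, 5 µm high and 150 µm long, at a hydrostatic pressure of 7 to 33 cmH2O, was compared with RNA from untransited control cells, with 2 libraries per group. The growth media differed between MCF-10A and the cancer lines. The methods name no separate medium for a line's constriction or control cells, and do not say how the control cells for RNA were held meanwhile. They describe the 2 libraries of a group as repeats of the whole experiment. The 12 libraries held 29978695 to 53584754 reads assigned to genes. Each table lists only genes with an unadjusted p-value under 0.05 in the authors' own comparison of the same libraries, so a gene that is not listed was not analysed here, and a test on a listed gene is not independent of how it came to be listed. The shares of the members below are therefore given beside the shares of all rows of the same table.

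Most of these genes encode C2H2 zinc finger proteins, in which arrays of small zinc-binding folds each read a few bases of DNA. Many carry a KRAB domain, which recruits the corepressor TRIM28 and heterochromatin proteins to silence transposable elements and nearby genes, while ZBTB proteins carry a BTB domain and ZSCAN proteins a SCAN domain through which they pair with partners. The family has expanded in clusters of related genes on chromosome 19. The name alone does not make a gene a transcription factor. The deposited annotation gave the zf-C2H2 or ZBTB family for 33 of the 37 MCF-10A members and 5 of the 7 MDA-MB-231 members. It gave no family for ZFPM2, ZNF385B, ZNF474 and ZNF518B in MCF-10A, for ZNF8 and ZFPL1 in MDA-MB-231 and for ZFP36 in LM2. A blank family does not by itself show that a gene is not a transcription factor. ZFP36 (tristetraprolin) binds AU-rich elements of mRNA through CCCH fingers, ZFPL1 is a membrane protein of the Golgi, and ZFPM2 (FOG2) is a cofactor of GATA factors.

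The members shared a location that the choice by name did not use. On GRCh38, 24 of the 43 genes (55.8%) lay on chromosome 19. In MCF-10A, 20 of 37 members (54.1%) lay there, against 91 of 1152 other protein-coding rows (7.9%), and the GENCODE annotation places 264 of all 610 protein-coding genes with these prefixes (43.3%) on that chromosome. The MCF-10A table listed 37 of the 610 genes with these prefixes (6.1%) and 1189 of 19951 protein-coding genes (6.0%). Of the 43 genes, 14 had another member within 100 kb. ZNF155 and ZNF221 were 153 bases apart, ZNF497 and ZNF837 were 4770 bases apart, ZNF253 and ZNF93 were 6239 bases apart, and ZNF154 and ZNF671 were 10557 bases apart. The exons of 12 members share bases with another gene on the same strand and those of 12 share bases with a gene on the opposite strand. How reads on such bases were counted, and whether strand was kept, is not given in the sources used here, so the counts of these members are uncertain. The largest shares were 83.5% of ZSCAN32 and 75.4% of ZFPL1 on the opposite strand and 78.5% of ZNF320 on the same strand, and ZNF670-ZNF695 is a readthrough gene that shares exons with ZNF695.

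Promoter sequence is shown for ZNF460 and ZNF154, since they are the members listed in more than 1 cell line, and they lie 403798 bases apart in the same region of chromosome 19. RefSeq windows matched 36 of the 43 members on GRCh38.p14. Each line gives the 250 bases before the RefSeq start, 5′ to 3′ on the gene's strand, with GGGCGG or its reverse complement CCGCCC, the GC box that SP factors read, in capitals.
ZNF460, chr19:57279732-57279981, plus strand: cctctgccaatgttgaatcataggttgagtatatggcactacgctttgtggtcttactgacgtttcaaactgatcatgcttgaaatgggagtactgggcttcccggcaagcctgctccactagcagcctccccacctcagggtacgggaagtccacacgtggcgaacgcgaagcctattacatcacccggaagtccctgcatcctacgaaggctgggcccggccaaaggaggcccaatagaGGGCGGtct
ZNF154, chr19:57709205-57709454, minus strand: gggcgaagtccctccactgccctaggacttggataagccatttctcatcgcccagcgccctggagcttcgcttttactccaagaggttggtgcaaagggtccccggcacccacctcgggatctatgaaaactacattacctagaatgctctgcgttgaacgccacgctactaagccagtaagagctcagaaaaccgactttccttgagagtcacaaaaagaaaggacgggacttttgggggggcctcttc
The ZNF460 window held 12 CpG dinucleotides, 1 GC box and 2 matches to CCAAT or its reverse complement, and the ZNF154 window held 11 CpG dinucleotides and neither motif. Among the 36 member windows, 25 (69.4%) held a GC box on either strand, beside 62.1% of the 509 windows of all genes with these prefixes and 56.9% of 14896 protein-coding windows. CCAAT on either strand was in 18 of 36 (50.0%), beside 45.2% and 34.5%. The median number of CpG dinucleotides was 18 in each of the 3 sets. A match is a description of the letters and not evidence that a factor bound there.

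In MCF-10A, the listed zinc finger genes were nearly all without reads after transit. Of the 37 members, 34 had 0 reads in both constriction libraries and between 7.07 and 156 normalised counts on average in the control libraries, where a normalised count is the read count divided by the library's size factor. Across the table, 89.6% of the rows had 0 reads in both constriction libraries, so the 91.9% of the zinc finger genes is close to the background. In the same table, 2489 and 2478 of 2680 rows were at 0 in constriction replicates 1 and 2, against 29 and 32 in the control libraries. The part of this difference between libraries in the result was not tested. Less RNA per cell and fewer cells cannot be told apart from these read counts, nor can either from the way the constriction libraries were made or counted. For both MCF-10A replicates the paper lists a lower cell concentration after transit than in control. Its total RNA after transit was lower in replicate 1 and higher in replicate 2. How these inputs bear on the counts was not tested, so each 0 and each bound below describes the deposited counts. On mean normalised counts 35 members were lower and 2 higher, beside 94.5% of rows lower, and 36 of 37 had no overlap between the groups, beside 96.8% of rows. The exceptions to the 0 reads were ZNF25, with reads in 1 constriction library, ZFP3, with reads in 1 constriction library and none in control, and ZNF460.

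**Figure D1:**
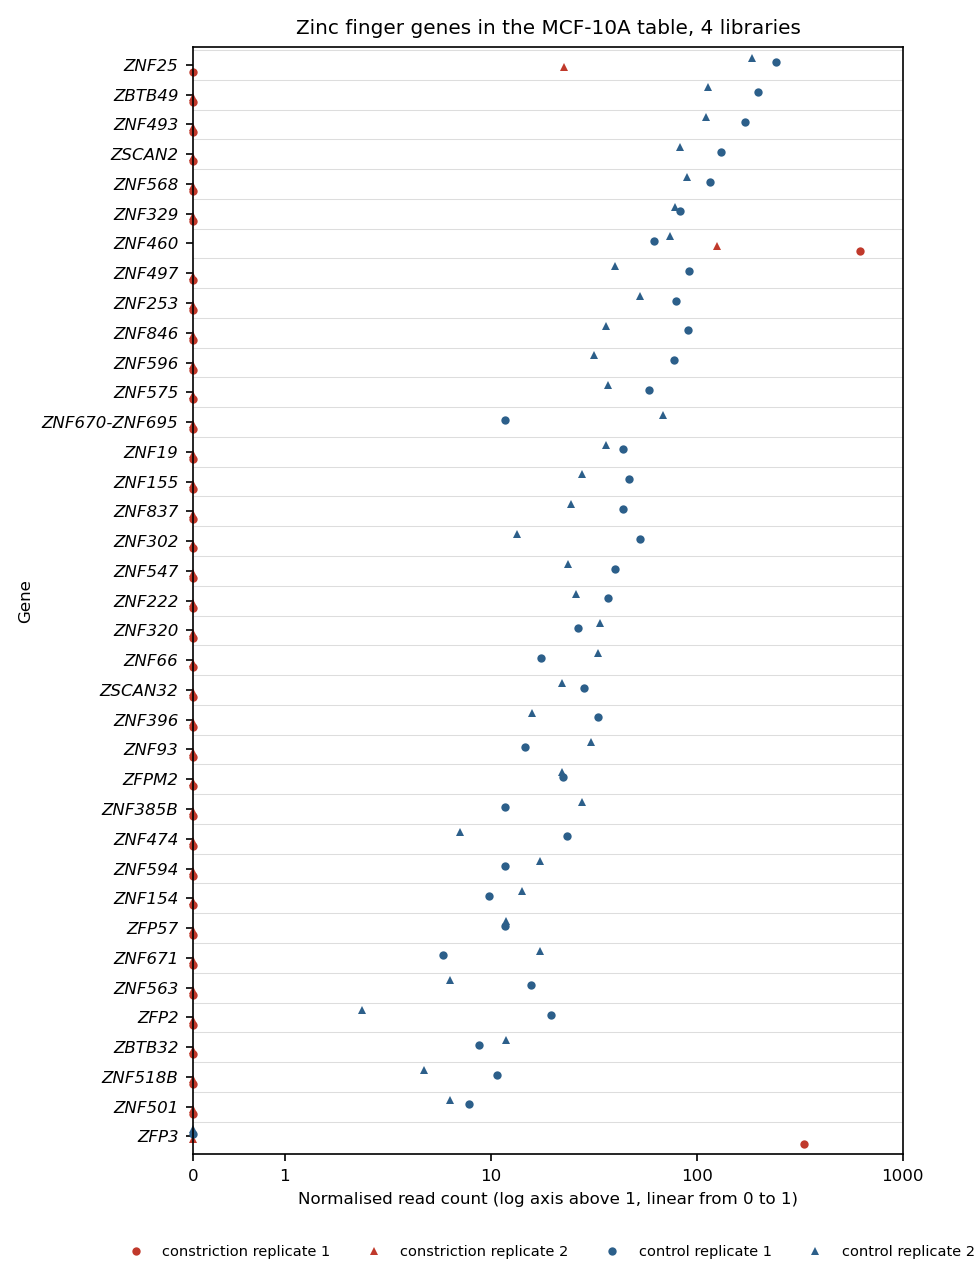
Normalised read count of each of the 37 zinc finger genes in the MCF-10A table, in 2 constriction libraries (red) and 2 control libraries (blue), on an axis that is logarithmic above 1 and linear below it. For 34 genes both red points lie at 0, while ZNF25 has 1 constriction library at 22.8, ZFP3 has 1 at 331 and ZNF460 lies above its controls in both.

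Among the 34 genes with 0 reads after transit, those with the highest control counts were the following. ZBTB49 (chr4:4290251-4321786, plus strand), a BTB zinc finger protein, had 199 and 114 normalised counts in the control libraries and 0 in both constriction libraries. ZNF493, one of the genes of the chromosome 19 clusters, had 171 and 111 in control and 0 in both. ZSCAN2, a SCAN domain gene, had 131 and 82.9 in control and 0 in both. No constriction library overlapped a control library for any of the 3. ZNF568, whose mouse counterpart represses a placental transcript of Igf2, had 116 and 90.0 in control, and ZNF329 had 83.2 and 78.2, again with 0 in both constriction libraries. Against the 3 reads per library that a count of 0 allows, which is 3.62 and 3.11 normalised counts in the constriction libraries, the mean was at least 46.5-fold lower for ZBTB49, 41.9-fold for ZNF493, 31.9-fold for ZSCAN2, 30.7-fold for ZNF568 and 24.0-fold for ZNF329. ZNF253, ZNF497 and ZNF846 followed, with control means of 66.1, 66.1 and 63.7 normalised counts (n = 2 each) and bounds of at least 19.7, 19.7 and 18.9-fold.

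At the other end, the bound was small because the control counts were small. ZNF501 had 8 reads in each control library (7.83 and 6.32 normalised counts), ZNF518B had 11 and 6 reads, and ZBTB32, a repressor known from lymphocytes, had 9 and 15. Their means were at least 2.10, 2.31 and 3.07-fold lower after transit. Over the 34 genes with 0 reads the bound ran from 2.10-fold to 46.5-fold with a median of 9.20-fold. It reached 10-fold for 14 genes and stayed under 4-fold for 8.

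On the scale that divides by gene length, these were weakly expressed genes before transit. The mean control FPKM of the 34 genes ran from 0.0199 for ZNF518B to 1.51 for ZBTB49, with a median of 0.194. ZSCAN2 (0.612 ± 0.210), ZNF329 (0.520 ± 0.0363), ZNF253 (0.508 ± 0.156) and ZNF497 (0.475 ± 0.273, all SD, n = 2) followed ZBTB49 (1.51 ± 0.616), and these 4 do not differ beyond the spread between libraries. The median control level of all 37 members was 0.203 FPKM and 31.6 normalised counts, beside 0.157 FPKM and 20.0 normalised counts for the 1152 other protein-coding rows, a description without a test.

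ZFP57, a KRAB protein that protects imprinted regions from losing DNA methylation, had 11.7 and 11.8 normalised counts in control and 0 after transit, and the GATA cofactor ZFPM2 had 22.5 and 22.1 in control and 0 after transit. ZNF93, which binds and represses LINE-1 retrotransposons, had 14.7 and 30.8 in control and 0 after transit. ZNF671 and its neighbour ZNF154, both known for promoter methylation in tumours, had 5.87 and 17.4, and 9.79 and 14.2, in control and again 0 after transit. Of a list of 32 zinc finger genes with better known roles, among them ZBTB16, ZNF217 and ZNF703, the MCF-10A table listed ZBTB32, ZFP57 and ZFPM2, and the other 29 were not listed.

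Members that lie close together could be compared within the same libraries. In the group of ZNF155, ZNF221 and ZNF222 on chromosome 19, ZNF155 (47.0 and 27.6 normalised counts in control) and ZNF222 (37.2 and 26.1), 27017 bases apart, were at 0 reads after transit, while ZNF221 was listed in MDA-MB-231 and not in MCF-10A. Of the pair ZNF497 and ZNF837, the former had 92.0 and 40.3 in control and the latter 44.1 and 24.5, with 0 reads after transit in both genes. Neighbours did not always go together. ZNF547, 69908 bases from ZNF460, had 40.1 and 23.7 normalised counts in control and 0 after transit, whereas ZNF460 was read in all 4 libraries and was higher after transit. ZNF594, 83162 bases from ZFP3, had 11.7 and 17.4 in control and 0 after transit, whereas ZFP3 was read in a constriction library and not in control.

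The remaining members lay between these levels. ZNF596 (77.3 and 31.6 normalised counts in control), ZNF575 (58.7 and 37.1) and ZNF19 (44.1 and 36.3) had the highest control counts among them, and their means were at least 16.2, 14.3 and 12.0-fold lower after transit. ZNF320, ZNF66, ZSCAN32, ZNF396, ZNF385B, ZNF474 and ZNF563 had control means from 11.0 (ZNF563) to 30.2 (ZNF320) normalised counts and bounds from 3.27-fold to 8.98-fold. All 10 had 0 reads in both constriction libraries, so the groups of none of them overlapped.

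The control libraries did not always match each other. Control replicate 1 was the higher in 24 of the 34 genes, and in 13 the control libraries were over 2-fold apart. Among the 2642 rows of the whole table with reads in both control libraries, these numbers were 1481 and 1178. ZFP2 had 20 and 3 reads in control, an 8.27-fold ratio of normalised counts, and ZNF670-ZNF695 had 11.7 and 68.7 normalised counts, a 5.85-fold ratio in the other direction. Without control replicate 1 the bound became over 1.5 times smaller, or was lost, for 9 genes. ZFP2 then had no bound, because its remaining control library had 3 reads. That of ZNF302 (52.9 and 13.4 normalised counts) went from 9.86-fold to 3.99-fold, and the bounds became 12.0-fold for ZNF497, 10.8-fold for ZNF846, 9.40-fold for ZNF596, 4.70-fold for ZNF396, 2.11-fold for ZNF474, 1.88-fold for ZNF563 and 1.41-fold for ZNF518B. Leaving out control replicate 2 lowered it by over 1.5 times for 4 genes, to 3.50-fold from 12.0-fold for ZNF670-ZNF695, and to 4.37-fold for ZNF93, 3.50-fold for ZNF385B and 1.75-fold for ZNF671. The bound rose by over 1.5 times for ZNF670-ZNF695 without control replicate 1 (20.4-fold) and for ZNF302, ZNF474 and ZFP2 without control replicate 2 (15.7, 6.99 and 5.83-fold). ZFP57, ZFPM2 and ZNF329 had the closest control libraries, with ratios of 1.01, 1.02 and 1.06.

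By edgeR's quasi-likelihood test, 34 of the 37 zinc finger genes passed an adjusted p-value of 0.05, all of them lower and all of them the genes with 0 reads after transit. The background is 91.5% of the rows called in either direction and 91.3% called lower, close to the 91.9% of the members. Adjusted over the rows of the table alone, 35 members were called, beside 95.7% of rows. Adjusted p-values of the called genes ran from 0.00469, shared by 21 genes, to 0.0404 for ZNF493. Leaving out a library lowered the number of calls. Without constriction replicate 1, 0 members and 0% of all rows were called by the same test, and 34 members and 93.1% of rows had an unadjusted p-value under 0.05. Without constriction replicate 2, 1 member (ZFP3) and 2.57% of rows were called, with 37 members and 99.1% of rows at an unadjusted p-value under 0.05. Without control replicate 1 these were 7 members and 20.8% of rows, with 21 members and 63.5% unadjusted, and without control replicate 2 they were 0 members and 0.149% of rows, with 23 members and 63.7% unadjusted. An exact permutation test of 2 against 2 libraries cannot go below 0.333.

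**Figure D2:**
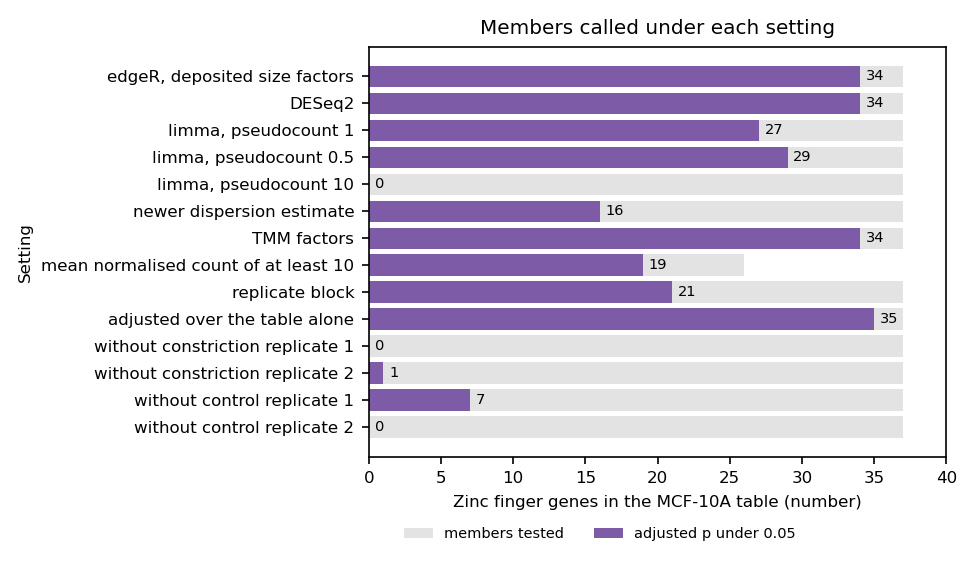
Number of MCF-10A zinc finger genes with an adjusted p-value under 0.05 (purple) out of those tested (grey) under each setting of the test, from edgeR with the deposited size factors (34 of 37) downwards. The count falls to 21 with the replicate block (74.2% of all rows of the table called), to 16 with the newer dispersion estimate (48.6% of rows) and to between 0 and 7 when a library is left out (0% to 20.8% of rows).

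The replicate numbers pair a constriction with a control library of the same experiment. With the replicate number as a block, 21 of the 37 members were called, beside 74.2% of all rows. The split followed the control level: the 21 genes called with and without the block had control means of 7.07 to 34.3 normalised counts, and the 13 called only without it had control means of 37.3 to 156. The blocked fit thus called the weaker genes, such as ZNF594 (adjusted p = 0.00384) and ZNF154 (adjusted p = 0.00583), and not ZBTB49 (adjusted p = 1) or ZNF568 (adjusted p = 0.870), whose control counts were higher. Over all alternatives the adjusted p of ZNF594 ran from 0.000653 to 0.321, that of ZNF154 from 0.000653 to 0.411, that of ZBTB49 from 0.000697 to 1 and that of ZNF568 from 0.000626 to 1. The table as a whole did the same: of the rows at 0 reads after transit that were called without the block, 1924 of 1938 with a control mean under 35 and 24 of 461 at or above it were also called with it.

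**Figure D3:**
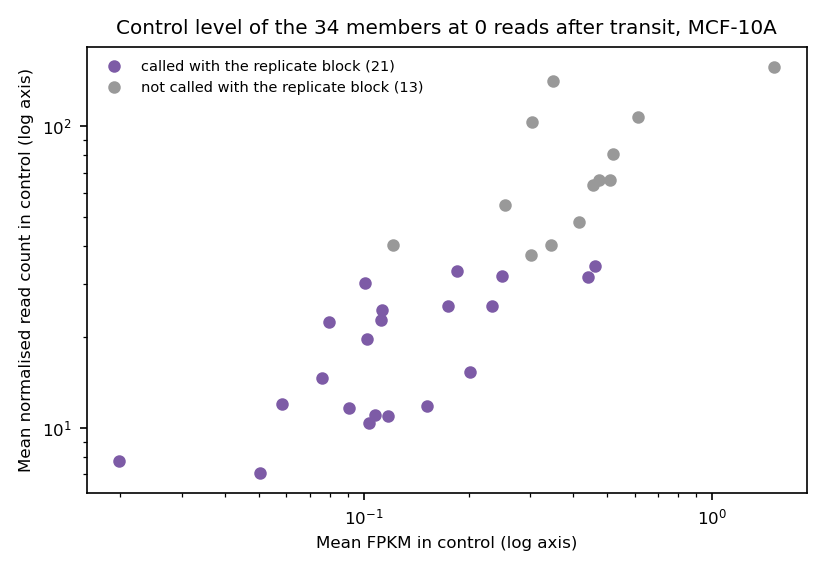
Mean normalised read count against mean FPKM in the MCF-10A control libraries, on log axes, for the 34 zinc finger genes with 0 reads after transit. The 21 genes called with the replicate block (purple) all lie at or below 34.3 normalised counts and the 13 others (grey) at or above 37.3.

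The 3 exceptions were not called. ZNF25 (chr10:37949572-37976633, minus strand) had the highest control count of the 37 genes, 242 and 186 normalised counts, and 0 and 22.8 after transit, a log2 difference of -4.12 (SE 2.29, n = 2 per group, adjusted p = 0.839). It was -3.17 without constriction replicate 1, at most -5.88 without constriction replicate 2, where no reads were left after transit, and -2.65 with TMM factors. ZFP3 had 331 and 0 normalised counts after transit and 0 in both control libraries (adjusted p = 0.0648), so its value comes from 1 of 4 libraries and its groups overlapped at 0. It passed with DESeq2 (adjusted p = 2.95e-07), as did 93.0% of all rows, and its adjusted p over all alternatives ran up to 1. ZNF460 is described below with MDA-MB-231.

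In MDA-MB-231 the listed zinc finger genes were read in every library and 6 of 7 were higher after transit. Both constriction libraries lay above both control libraries for those 6, and both lay below for ZNF581. All 7 were without overlap between the groups, beside 94.5% of the rows of the table. Both constriction libraries lay above the controls for 61.9% of the rows and below for 32.5%. None of the 7 passed edgeR's adjusted threshold, beside 0.262% of rows called. All 7 had an unadjusted p-value under 0.05, beside 94.0% of rows, and DESeq2 called 1 (ZNF460), beside 2.36% of rows. Adjusted over the rows of the table alone, all 7 were called, beside 92.9% of rows.

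ZNF460 (chr19:57280051-57293569, plus strand), a KRAB-family gene, had 366 and 293 normalised counts after transit and 92.6 and 110.1 in control. The log2 difference was 1.69 (SE 0.203, n = 2 per group). ZBTB20 (chr3:114314501-115147271, minus strand), a BTB repressor needed in liver and hippocampus, had 222 and 348 after transit and 83.7 and 121 in control, a log2 difference of 1.47 (SE 0.418). These 2 genes were called with the replicate block (adjusted p = 4.89e-06 for ZNF460 and 0.000689 for ZBTB20), where 22.6% of all rows were called, and over all alternatives their adjusted p-values ran up to 1. Exons shared with other genes on the same strand make up 47.7% of the ZBTB20 exon length.

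ZNF154 (chr19:57697367-57709194, minus strand) had 42.0 and 52.7 normalised counts after transit and 5.07 and 12.0 in control, the largest log2 difference of the 7 (2.34, SE 0.574) on the smallest counts, and 0.0323 ± 0.0190 FPKM in control (SD, n = 2). Its log2 difference was 1.89 without control replicate 1 and 2.99 without control replicate 2, 1.94 with TMM factors and 1.63 with a pseudocount of 10. ZNF221 had 226 and 196 after transit and 109 and 128 in control (log2 difference 0.82, SE 0.154). The remaining changes were under 2-fold. ZNF8 had 845 and 844 normalised counts after transit and 530.3 and 628 in control (log2 difference 0.54, SE 0.122). The Golgi gene ZFPL1 had 763 and 559 after transit and 438 and 435 in control (0.60, SE 0.224), and ZNF581, the MDA-MB-231 member with the highest level at 8.92 ± 1.06 FPKM in control, had 482 and 508 after transit and 793 and 654 in control (-0.55, SE 0.144). With TMM factors computed on the listed rows, which lower the MDA-MB-231 log2 differences by 0.41 at the median, that of ZNF8 was 0.13, that of ZFPL1 was 0.19 and that of ZNF581 was -0.95, with no change of direction.

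**Figure D4:**
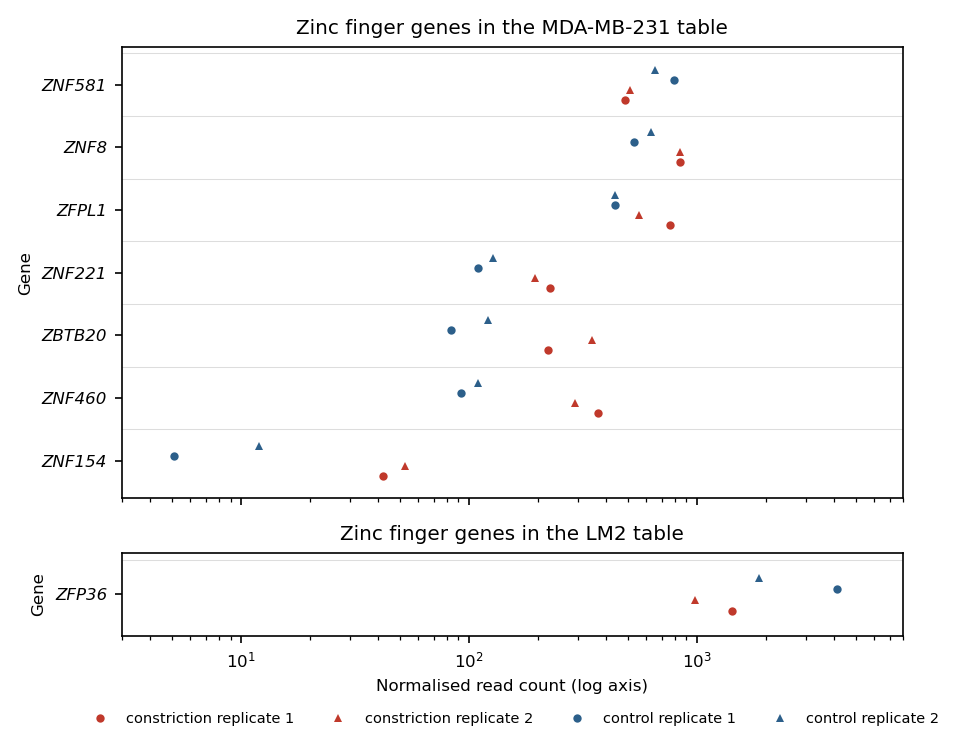
Normalised read count, on a log axis, of the 7 zinc finger genes in the MDA-MB-231 table (top) and of ZFP36 in the LM2 table (bottom), in 2 constriction (red) and 2 control (blue) libraries. The red points lie above the blue ones for 6 genes and below them for ZNF581 and ZFP36.

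In LM2 the table held ZFP36 (chr19:39406813-39409412, plus strand), an early-response gene whose protein speeds the decay of cytokine mRNAs, and no C2H2 member. It had 1421 and 979.6 normalised counts after transit and 4119 and 1867 in control. Both constriction libraries lay below both control libraries, as for 40.2% of the rows of the table as against 42.3% with both above. The log2 difference was -1.32 (SE 0.630, n = 2 per group), which became -0.64 without control replicate 1, and it was not called by edgeR (adjusted p = 1, unadjusted p = 0.0845). Adjusted p-values ran from 0.128 to 1 over the alternatives, and 0% of the table's rows were called without the block and 28.9% with it.

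ZNF460 and ZNF154 could be followed in both MCF-10A and MDA-MB-231. ZNF460 was higher after transit in both lines: in MCF-10A it had 621 and 125 normalised counts after transit and 61.7 and 74.2 in control, a log2 difference of 2.44 (SE 1.16, adjusted p = 1) that was 0.87 without constriction replicate 1 and 3.17 without constriction replicate 2, and 1.62 with TMM factors. Its control levels, 0.538 ± 0.0565 FPKM in MCF-10A and 0.621 ± 0.0862 FPKM in MDA-MB-231 (SD, n = 2), come from different libraries and were not compared by a test. ZNF154 moved in opposite directions, with 0 reads in both MCF-10A constriction libraries and more reads in both MDA-MB-231 constriction libraries than in the controls. Its log2 difference was -1.84 or lower in MCF-10A, against 3 reads per constriction library, and 2.34 (SE 0.574) in MDA-MB-231. With TMM factors these were -1.38 and 1.94. An exact two-sided permutation test within lines, on log2(normalised count + 1), gave p = 0.0556 for ZNF154, which is the smallest p that its 36 arrangements allow, and p = 1 for ZNF460 (0.111 and 1 adjusted over 2 tests). The ZNF154 value was fixed by groups without overlap in opposite directions, and the arrangements do not use the replicate pairs. Of all rows, 94.5% were lower in MCF-10A, and 61.9% had both constriction libraries above both controls in MDA-MB-231.

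**Figure D5:**
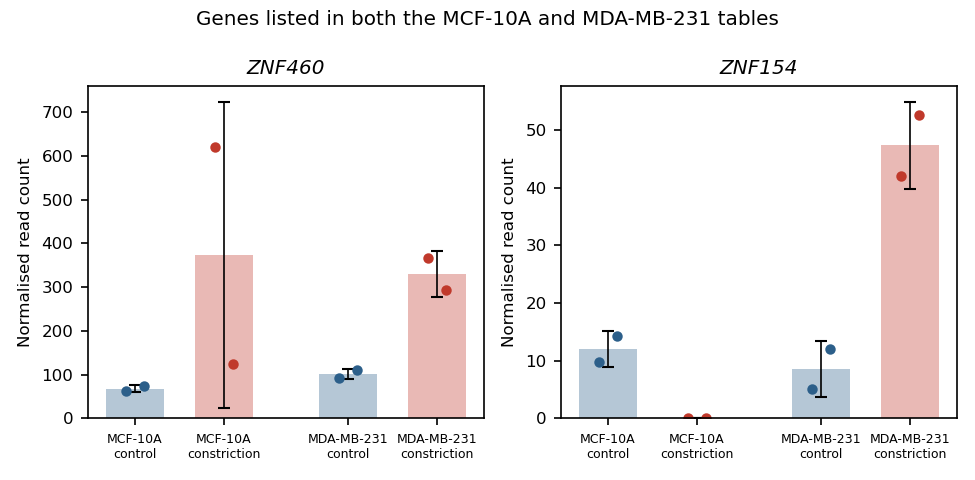
Normalised read count of ZNF460 (left) and ZNF154 (right) in control (blue) and constriction (red) libraries of MCF-10A and MDA-MB-231, with points for the 2 libraries, bars for their mean and error bars of 1 SD cut at 0. ZNF460 rises in the bars of both lines with a wide spread in MCF-10A, and ZNF154 is at 0 after transit in MCF-10A and highest after transit in MDA-MB-231.

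Of 118 C2H2 transcription factor genes outside the naming rule (KLF, SP, EGR, SNAI, PRDM and other families), 11 were in the MCF-10A table, 10 of them lower and 9 called, each of the 9 with 0 reads in both constriction libraries, beside 94.5% of all rows lower, 91.5% called and 89.6% at 0 reads. Control means of the 9 ran from 8.76 normalised counts (SNAI3) to 239 (EGR2), with OVOL1, KLF2, PRDM6, SALL2, SNAI1, PRDM12 and GFI1 between them. The early-response gene EGR2 had 472 and 7.11 normalised counts in control, and SNAI1, a repressor of E-cadherin, had 4.89 and 30.0, so the control libraries of both were far apart. The other two were not called. EGR3 had 1022 and 30.8 in control and 0 and 16.6 after transit (adjusted p = 0.320), and HIC1, the gene that was higher, had 34.3 and 5.53 in control and 1185 and 19.7 after transit (adjusted p = 0.480). With the replicate block 4 of the 11 were called, beside 74.2% of rows. Of the same list, MDA-MB-231 held ZFHX3 (higher) and EGR2 (lower) and LM2 held EGR1 (lower), none of them called, and with the block ZFHX3 was called (adjusted p = 8.54e-06). None of 26 genes for partners of KRAB and BTB repressors, such as TRIM28, SETDB1, the HP1 genes CBX1, CBX3 and CBX5, NCOR1 and BCOR, was listed in any table.

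Non-coding rows named after zinc finger genes were found only in the MCF-10A table, where 13 antisense, divergent, intronic or pseudogene transcripts were listed. Of these, 12 had 0 reads in both constriction libraries and were called lower, with control means from 8.65 normalised counts upwards, beside 89.6% of all rows at 0 reads and 91.3% called lower. With the replicate block 11 of the 12 were called and ZNF236-DT was not (edgeR adjusted p = 0.0830), beside 74.2% of rows called. The row with reads after transit, ZNF561-AS1, had 52 and 78 reads in control and 0 and 8 after transit (log2 difference -3.48, SE 1.61, adjusted p = 0.177). Markers that define the lines were mostly not listed, so the labels could be checked only in part. Of 11 markers of basal-like epithelium, the MCF-10A table held only KRT16, at 3036 and 3135 normalised counts after transit and 7012 and 7612 in control. No leucocyte or fibroblast marker of the lists was in any table. PECAM1, an endothelial marker, was in the MCF-10A table with 69.5 and 37.9 normalised counts in control and 0 after transit.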

How the data were processed

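RNA sequencing tables of 12 libraries (3 cell lines, constriction or control, 2 replicates) were analysed. Per the submitters' processing notes, the authors filtered reads with fastp, aligned them with HISAT2 2.0.5 to GRCh38 and counted them per gene with featureCounts 1.5.0-p3, which gave the deposited read counts. Normalised counts (signal) were deposited as the authors made them, each count divided by a DESeq2 1.20.0 size factor of its library (0.788 to 1.27) within the line. The authors also deposited FPKM from the same counts and gene lengths. The deposited fold changes, p-values and adjusted p-values are the authors' own comparison. Only the p-value columns were read, to find that all rows lay under 0.05 and to recover the number of genes adjusted over (19236 for MCF-10A, 23976 for MDA-MB-231, 30209 for LM2). GO enrichment lists were not used.

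The members and gene lists were chosen with earlier results of these data known. Counts were tested with edgeR 4.0.16 (quasi-likelihood, deposited size factors) within each line, with Benjamini-Hochberg adjustment over those numbers of genes, unlisted genes being given a value of 1, and a call at 0.05. A log2 difference is that of log2(mean normalised count + 1), and its SE comes from the spread between libraries of a group. A group with at most 3 reads in each library gave a bound against 3 reads per library, which covers counting error only. Named genes were all members listed in MDA-MB-231, LM2 or more than 1 table, MCF-10A members with reads after transit, those with the 10 highest and 5 lowest control means and with the 5 largest and 5 smallest ratios of control libraries, and members with known roles. ZNF93, neighbouring pairs and overlapping genes were named in addition. Alternatives were DESeq2 1.42.0, limma 3.58.1 with pseudocounts of 0.5, 1 and 10, TMM factors, total reads, a newer dispersion estimate, a filter at a mean of 10 normalised counts, the replicate block, adjustment over the rows of the table, leaving out each library and, added after seeing the data, the block with crossed numbers in MCF-10A. Simulated counts were used first to test edgeR with both dispersion estimates and with the replicate block, limma with a pseudocount of 1, and DESeq2. They were made for MCF-10A and MDA-MB-231 and not for LM2, and the other alternatives were not tested in this way. A minimum mean count was set in the simulation, so it did not copy the genes at 0 reads after transit.

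Replicate numbers pair libraries, since the study lists both conditions of each replicate experiment together. The correlation of the deviations of same-numbered libraries from their group means was -0.0427 for MCF-10A, 0.0827 for MDA-MB-231 and -0.0317 for LM2 over all rows, and -0.110, 0.159 and 0.0480 over rows with a mean of at least 10 normalised counts. The title of an LM2 constriction library says replicate 2 where its description says 1, and the title was followed. Locations and exon overlaps came from GENCODE 29, whose coordinates matched those of all 43 genes, and promoter windows from RefSeq on GRCh38.p14. Protein sequences were not used here.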

Additional observations from a re-analysis of the deposited data

Results flagged for a closer look

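ZNF154 was singled out for opposite directions in MCF-10A and MDA-MB-231. Both constriction libraries were below both controls in MCF-10A and above both controls in MDA-MB-231, and the log2 difference was -1.84 or lower in MCF-10A, against 3 reads per constriction library, and 2.34 (SE 0.574) in MDA-MB-231. On the log2(normalised count + 1) scale, with 0 reads taken as such, the mean difference in MCF-10A minus that in MDA-MB-231 was -6.11, a size that depends on the added 1 because the MCF-10A constriction libraries are at 0. The exact permutation p of 0.0556 is the smallest this design allows, and 2 members were compared in this way. It follows from groups without overlap in opposite directions, for which the gene was singled out, so it adds no support. Of all rows, 94.5% were lower in MCF-10A, and 61.9% had both constriction libraries above both controls in MDA-MB-231. The ZNF154 counts were small, with 10 and 18 reads in the MCF-10A controls and 4 and 14 reads in the MDA-MB-231 controls.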

How the results depend on the processing

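In MCF-10A, 34 of 37 zinc finger genes and 91.5% of all rows were called. The count was 34 with TMM factors (85.9% of rows), 27 and 29 with limma at pseudocounts of 1 and 0.5 (60.1% and 69.4%) and 35 over the table alone (95.7%). DESeq2 also called 34 (93.0%), 33 of them at 0 reads after transit, with ZFP3 gained and ZFP2 lost (adjusted p = 0.0507). The count was 21 with the replicate block (74.2%), 16 with the newer dispersion estimate (48.6%), 19 of 26 under a filter at a mean of 10 normalised counts (74.0% of 1209 rows), 0 with limma at a pseudocount of 10 (0%, and 31 members and 75.2% of rows at an unadjusted p-value under 0.05) and 0 to 7 when a library was left out (0% to 20.8%). With the replicate numbers crossed in the replicate block, an alternative chosen after seeing the data, 0 members and 5 rows were called, and 26 members and 84.6% of rows had an unadjusted p-value under 0.05. With a library left out, the lone library of a group is assumed to vary like the other group. Among members that share no exon bases with another gene, 19 of 21 were called, 20 were lower and 19 had 0 reads. In MDA-MB-231, 0 of 7 were called, against 1 with DESeq2 (2.36% of rows), 2 with the replicate block (22.6%) and 7 over the table alone (92.9%), and of the 2 members there without shared exon bases 0 were lower. The cause of these changes was not tested. Beyond these and the calls given above, the block changed no call of a zinc finger gene, and 72 of 88 counts moved by at most 1.5 times. That tally includes counts that could hardly move, such as those of the 1 member in LM2. It is no measure of how stable the MCF-10A calls were, which moved as given above. A bound uses no pseudocount, and leaving those settings out, 215 of 243 log2 values of members moved by at most 1 SD between libraries, with 0 reversed. That SD is wide for genes with libraries far apart: the bound of ZFP3 was 5.97 on the log2 scale and 2.58 with TMM factors. TMM factors of the listed rows shifted the rows with reads in all 4 libraries by -0.81 (MCF-10A), -0.41 (MDA-MB-231) and 0.26 (LM2) on the log2 scale. Restricting membership by RefSeq protein sequence was not run, and the deposited transcription factor family was used in its place, with the exon-sharing filter, after the data were seen. It left no member in LM2. With 2 libraries per group and only listed genes, neither the absence of other members from a table nor levels under 3 reads can be read further.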
